A study of Mus musculus with 3 samples.

Results

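Acod1 and the 4 genes of succinate dehydrogenase, Sdha, Sdhb, Sdhc and Sdhd, were followed in chromatin-bound RNA of mouse macrophages. They were found by symbol, and all 5 were present among 55536 annotated genes. The cells were macrophages grown from bone marrow of C57BL/6J mice, with no allele or transgene named in the labels. All of them had received Lipid A, the Toll-like receptor 4 agonist of bacterial lipopolysaccharide, at 100 ng/ml for 12 h, had been kept without it for 12 h, and had received 100 ng/ml again for 60 min. The labels give neither age nor sex. RNA was taken from the chromatin fraction, which is rich in transcripts still being made, and ribosomal RNA was removed before sequencing. The 3 libraries are labelled as biological replicates 1, 2 and 3. Each has its own biosample, all carry one donor entry, and separate animals or cultures are not stated. Any p-value therefore measures only the spread between these 3 samples. There was 1 group and no untreated arm, so that all values are levels after the second dose and not responses to it.

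Acod1 (aconitate decarboxylase 1, also known as Irg1) converts the citrate cycle intermediate cis-aconitate into itaconate in the mitochondria of activated macrophages. Itaconate resembles succinate and inhibits succinate dehydrogenase, which is both an enzyme of the citrate cycle and complex II of the respiratory chain. That complex oxidises succinate to fumarate and passes the electrons to ubiquinone. Sdha carries the flavin and the succinate site, Sdhb carries the iron-sulfur clusters, and Sdhc and Sdhd anchor the complex in the inner mitochondrial membrane and form the ubiquinone site. All 4 subunits are encoded in the nucleus and are present in equal numbers in the complex.

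Replicates 1, 2 and 3 were made from 1000, 250 and 500 ng of RNA, per the labels, and hold 12602702, 17222239 and 17042691 counts on annotated genes. A level of 3 counts corresponded to 0.238, 0.174 and 0.176 CPM, the count as a share of all counts in the library. The libraries were not copies of each other, with a chi-square per gene of 61.5 to 102 between pairs. Macrophage markers were present as labelled, with 12 of 12 detected (more than 3 counts in a library) and 11 of 12 at 10 TPM or more in every library. TPM is the abundance of transcripts after division by length, with each library scaled to the same total. Replicate 2 stood apart by its fibroblast and stromal markers, which summed to 0.08, 946 and 2.95 TPM in replicates 1, 2 and 3, with 12 of 12 highest in replicate 2. The defining markers of neutrophils were undetected, 8 of 8. Of the T and NK cell, B cell and erythroid lists 1 marker each was detected, which were Cd4, Ebf1 and Alas2.

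Acod1 (ENSMUSG00000022126.6, mm10 chromosome 14, 103046977 to 103056573, + strand) was among the protein-coding genes with the most chromatin RNA. It has 1 annotated transcript with 5 exons over 9597 bases, and no other annotated gene overlaps it. Its level was 1589.8, 1357 and 1619.7 TPM in replicates 1, 2 and 3, or 1522 ± 144 TPM (SD, n = 3). Replicates 1 and 3 were close to each other and replicate 2 was lowest, with a mean of 1605 TPM without it. These levels were rank 4, 10 and 6 among 15865 protein-coding genes with a count, and genes of other types were not ranked. They rested on 57117, 42484 and 54787 counts, so that 0.453, 0.247 and 0.321% of all gene counts fell on Acod1. In CPM, which is not divided by length, the values were 4532, 2467 and 3215. The spread was wider on that scale, with a coefficient of variation of 30.7% beside 9.44% in TPM. The tables in the layout of kallisto, a second quantification made directly from the reads, gave 1796, 1172 and 1467 TPM for Acod1. Replicate 2 was lowest on all of these scales, and the replicate order of the other libraries was not the same on each.

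Sdha (ENSMUSG00000021577.14, chromosome 13, 74322254 to 74350280, − strand), the flavoprotein subunit, was the highest of the 4 subunit genes. It had 27.6, 51.3 and 38.9 TPM in replicates 1, 2 and 3, from 516, 831 and 528 counts. Its mean of 39.2 ± 11.8 TPM (SD, n = 3) placed it at percentiles 88.2, 90.4 and 89.9 of protein-coding genes. Sdhb (ENSMUSG00000009863.14, chromosome 4, 140961203 to 140979193, + strand), the iron-sulfur subunit, had 14.2, 22.9 and 11.7 TPM from 197, 258 and 142 counts. Its mean was 16.3 ± 5.86 TPM (SD, n = 3). In TPM both genes were highest in replicate 2, whereas Sdhb in CPM was 15.6, 15.0 and 8.33, highest in replicate 1. In TPM no library of Sdhb reached the lowest library of Sdha.

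The membrane anchor genes stood lower and varied more. Sdhc (ENSMUSG00000058076.12, chromosome 1, 171127165 to 171150603, − strand) had 1.98, 7.92 and 3.24 TPM, from 68, 180 and 71 counts. Sdhd (ENSMUSG00000000171.5, chromosome 9, 50596357 to 50603812, − strand) had 1.65, 9.07 and 3.65 TPM, from 26, 116 and 51 counts. Their means were 4.38 ± 3.13 and 4.79 ± 3.84 TPM (SD, n = 3), with coefficients of variation of 71.5 and 80.1% beside 30.2% for Sdha and 36.0% for Sdhb. Replicate 2 was the highest library of both anchors and replicate 1 the lowest. Without replicate 2 the means were 33.2 TPM for Sdha, 13.0 for Sdhb, 2.61 for Sdhc and 2.65 for Sdhd. The median protein-coding gene with a count had 1.6, 3.99 and 1.95 TPM, so that Sdhd in replicate 1 lay close to it. In RNA from a mixed sample, fewer cells of a type and less RNA per cell cannot be told apart.

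**Figure D1:**
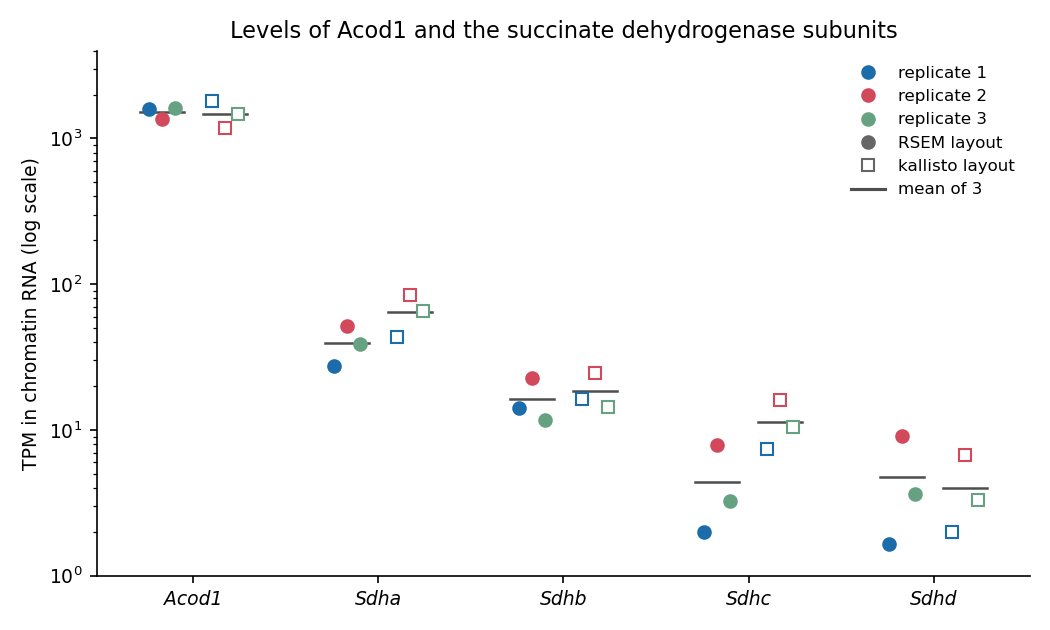
TPM of Acod1, Sdha, Sdhb, Sdhc and Sdhd in replicates 1, 2 and 3 on a log axis, with filled circles for the RSEM layout, open squares for the kallisto layout and a bar at the mean of 3. Acod1 lies between 1172 and 1796 TPM in both, far above the subunit genes, and in TPM replicate 2 is lowest for Acod1 and highest for each subunit.

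Among the subunits the order was Sdha, Sdhb, then Sdhc and Sdhd together. On the scale of log2(TPM + 1), Sdha exceeded Sdhb by 1.23 ± 0.38 (SD, n = 3) and Sdhb exceeded Sdhc by 1.78 ± 0.50, each in 3 of 3 libraries. Of the 6 pairs of subunits, 5 had the same sign in every library. For each of these 5, p was 0.25 by exact two-sided sign flips, the smallest value that 3 libraries allow, and 0.3 after Benjamini-Hochberg adjustment over 6 pairs, so that no pair could pass a threshold of 0.05. Sdhc and Sdhd did not differ beyond their spread, at −0.05 ± 0.19 with an exact p of 0.75. Their order depended on the scale: Sdhc was above Sdhd by 1.35 in the kallisto layout and by 0.67 in CPM. The ratio of Sdha to Sdhd in TPM was 16.7, 5.65 and 10.6 in replicates 1, 2 and 3, and it was lowest in replicate 2.

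Within each library Acod1 was set against the enzyme that its product inhibits. Acod1 held 57.6, 26.5 and 41.7 times the TPM of Sdha in replicates 1, 2 and 3. For Sdhb the ratio was 112, 59.3 and 138, for Sdhc 803, 171 and 500, and for Sdhd 964, 150 and 444. Against the summed TPM of the 4 subunits, Acod1 was 35.0, 14.9 and 28.2 times higher. On the scale of log2(TPM + 1), Acod1 exceeded the mean of the subunits by 7.70, 6.21 and 7.34, a mean difference of 7.08 ± 0.78 (SD, n = 3) in 3 of 3 libraries. The exact sign-flip test gave p = 0.25, the smallest possible. Every ratio was lowest in replicate 2, where Acod1 was lowest and the subunits were highest, and without that library the difference was 7.52. In the kallisto layout the mean difference was 6.51. The subunit levels include all annotated isoforms of each gene. Coding isoforms of Sdha alone held 10.5, 24.5 and 11.6 TPM in replicates 1, 2 and 3, against which Acod1 would stand higher. Chromatin RNA is a measure of RNA at the gene, so these ratios are not ratios of finished mRNA or of protein.

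The difference in replicate 2 was compared with that of all genes. Among 8576 protein-coding genes with at least 1 TPM in each library, the log2 of TPM in replicate 2 over the mean of replicates 1 and 3 had a median of 0.55. Of these genes 75.2% were highest in replicate 2 and 6.90% were lowest there. Acod1 stood at −0.24, percentile 6.41 of these genes. Sdha at 0.63 (percentile 55.5) and Sdhb at 0.82 (percentile 68.6) were near the middle, while Sdhc at 1.60 (percentile 94.1) and Sdhd at 1.78 (percentile 96.0) lay towards the upper end. Rescaling TPM to protein-coding genes alone brought the median of genes to 0.26 and the share highest in replicate 2 to 55.5%. The values became −0.55 for Acod1, 0.33 for Sdha, 0.50 for Sdhb, 1.31 for Sdhc and 1.499 for Sdhd. The rescaling multiplies all genes of a library by the same factor, so the order of the 5 genes could hardly change, and it did not. Stromal marker RNA was highest and starting RNA lowest in the same library, and the part of either in these differences was not tested.

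**Figure D2:**
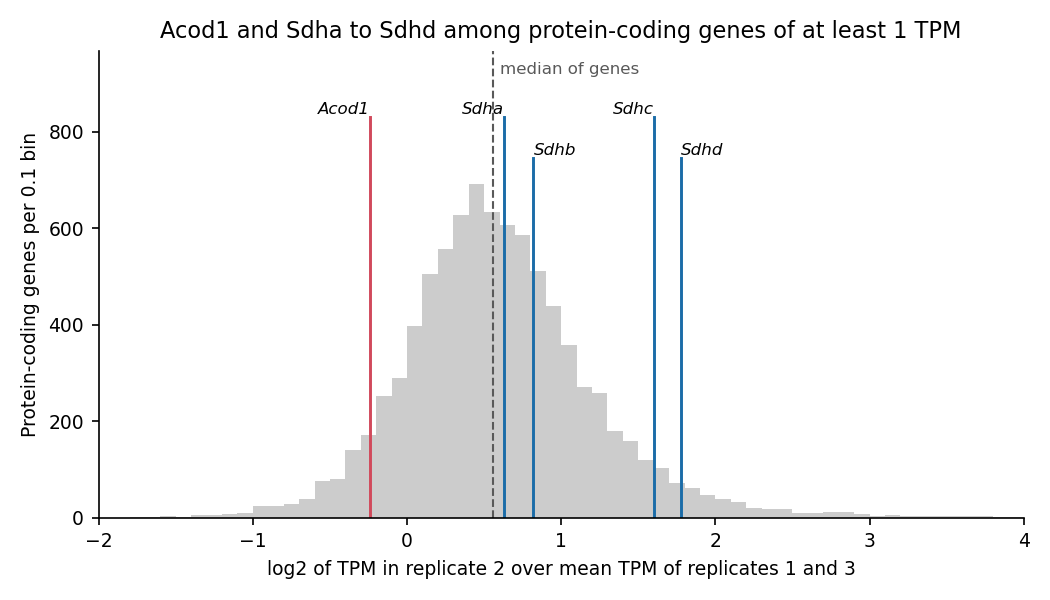
Histogram of 8576 protein-coding genes by the log2 of TPM in replicate 2 over the mean TPM of replicates 1 and 3, with vertical lines for the 5 genes and a dashed line for the median of genes. Acod1 at −0.24 lies left of the median of 0.55, and Sdhc at 1.60 and Sdhd at 1.78 lie in the right tail.

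The starting quantity of RNA is the only labelled quantity that differed between the libraries, and with 1 library for each quantity it cannot be told apart from the library itself. The slope of each gene on log2 starting RNA was fitted with edgeR over 14001 genes, of which 0.614% were called positive and 0.95% negative at an adjusted p of 0.05. Of the 5 genes 0 were called by edgeR, and 1, Sdhd, had an unadjusted p under 0.05, beside 9.53% of all genes tested. DESeq2 also called 0 of 5, beside 0.83% of 14817 genes. There the 1 gene with an unadjusted p under 0.05 was Acod1, beside 6.6% of all genes tested. Acod1 had a slope of 0.51 (SE 0.33) per doubling of RNA, with an edgeR adjusted p of 0.708. Sdhd had the steepest slope of the 5, at −0.78 (SE 0.33), with an unadjusted p of 0.030 and an adjusted p of 0.431 in edgeR. For Sdhc the slope was −0.41 (SE 0.29), for Sdha −0.04 (SE 0.23) and for Sdhb 0.10 (SE 0.26), beside a median of −0.02 over all genes tested.

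Sdha was the only one of the 5 genes with isoforms annotated as retaining an intron. GENCODE lists 9 isoforms of Sdha, of which 2 are protein coding, 4 retain an intron and 3 are other processed transcripts. The retained-intron class held 15.4, 23.5 and 22.5 TPM in replicates 1, 2 and 3, and the protein-coding class 10.5, 24.5 and 11.6 TPM. Retained-intron isoforms thus took 53.1 ± 6.47% of Sdha TPM (SD, n = 3) and protein-coding isoforms 38.5 ± 9.03%. The classes were level in replicate 2, while the retained-intron class was the higher one in replicates 1 and 3. In log2 the ratio of the classes was 0.55, −0.06 and 0.95, with a mean of 0.48 (SE 0.28) that limma did not separate from 0 (adjusted p = 0.205). In that fit 24.3% of 4311 genes were called with the retained-intron class higher and 25.6% with the protein-coding class higher, around a median of −0.06.

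The call for Sdha depended on how reads were assigned. In the kallisto layout the retained-intron class took 57.0 ± 2.47% and the protein-coding class 20.4 ± 5.62% of TPM (SD, n = 3), and limma gave a log2 ratio of 1.51 with an adjusted p of 0.00559. By expected counts, not divided by length, the protein-coding isoforms held 79.3 ± 5.44% and the retained-intron isoforms 19.2 ± 4.72%, and the ratio turned to −2.06 (limma adjusted p = 0.00251). The retained-intron models are short, 239 to 858 bases beside 2900 for the full coding transcript Sdha-201. A given number of reads therefore gives them more TPM.

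These models also hold little intron. Of 25127 intron bases in the 14 introns of Sdha-201, the 4 models together cover 791, or 3.15%, in 4 introns, and 0 introns are held whole. Intronic bases make up 21.7% of Sdha-202, 23.4% of Sdha-204, 52.2% of Sdha-205 and 35.2% of Sdha-206. Sdha-205 had 4.48, 7.86 and 9.41 TPM in replicates 1, 2 and 3, and Sdha-206 had 4.08, 11.1 and 6.74 TPM, with means of 7.25 and 7.30 TPM. Sdha-202 had 2.65, 0 and 6.37 TPM and Sdha-204 4.15, 4.55 and 0, so that each was listed at 0 in a library, whereas the kallisto layout gave 6.69 TPM to Sdha-202 in replicate 2 and 9.67 TPM to Sdha-204 in replicate 3.

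The exon ends that these models read through are shown because the retained-intron isoforms part from Sdha-201 there. They were read from the GENCODE M21 transcripts on mm10, − strand, 5′ to 3′, with the first 6 intron bases at a 5′ splice site or the last 2 at a 3′ splice site in capitals.
Sdha-202, intron 3, 5′ splice site, chr13:74343307-74343356: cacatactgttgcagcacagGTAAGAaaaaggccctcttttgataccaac
Sdha-205, intron 5, 5′ splice site, chr13:74339017-74339066: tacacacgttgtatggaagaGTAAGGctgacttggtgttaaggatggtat
Sdha-204, intron 10, 3′ splice site, chr13:74328396-74328445: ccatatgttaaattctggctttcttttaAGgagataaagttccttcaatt
Sdha-206, intron 13, 3′ splice site, chr13:74323935-74323984: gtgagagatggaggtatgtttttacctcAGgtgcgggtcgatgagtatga
Sdha-202 reaches 95 of 3621 bases into intron 3 and Sdha-205 297 of 1507 bases into intron 5. Sdha-205 also begins 41 bases before the end of intron 3. Sdha-204 begins 56 bases before the end of intron 10 and Sdha-206 302 bases before the end of intron 13. The rest of these 4 introns lies in no annotated isoform of Sdha.

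Sdhb has 3 isoforms, of which Sdhb-201 is protein coding and Sdhb-202 and Sdhb-203 are processed transcripts with no annotated reading frame. Sdhb-202 had 8.43, 10.3 and 7.30 TPM in replicates 1, 2 and 3, and Sdhb-201 had 4.50, 10.1 and 3.59 TPM. The processed transcripts together held 64.6 ± 7.39% of Sdhb TPM (SD, n = 3) and 63.2 ± 7.34% of its counts, and 56.1 ± 3.97% of TPM in the kallisto layout. Here the share was above that of the coding isoform in every library and on each of these scales. Of the 1065 bases of Sdhb-202, 517 lie outside the exons of Sdhb-201, all in its intron 5 of 2334 bases. Of the 1232 bases of Sdhb-203, 580 lie in intron 6 of 1161 bases. Reads of unspliced Sdhb RNA in these stretches cannot be told apart from reads of the processed transcripts, and their part in the shares was not tested. Counting coding isoforms alone, Sdha had 10.5, 24.5 and 11.6 TPM and Sdhb 4.50, 10.1 and 3.59, and the order of Sdha over Sdhb held in each library.

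The 3 isoforms of Sdhc are all annotated as protein coding. Sdhc-202, with 3171 bases the longest, had 1.53, 3.91 and 1.53 TPM in replicates 1, 2 and 3. Sdhc-201 had 0, 4.01 and 0.77 TPM, and Sdhc-203, with 298 bases, had 0.46, 0 and 0.94 TPM. In the kallisto layout the short Sdhc-203 held 50.4 ± 1.09% of Sdhc TPM (SD, n = 3) and Sdhc-202 held 22.8 ± 0.50%, against 17.4 ± 15.3% and 57.8 ± 16.5% in the RSEM layout. By counts, not divided by length, Sdhc-202 held 90.7 ± 7.39% in the RSEM layout and 74.4 ± 1.90% in the kallisto layout. Sdhc-203 held 0.96 ± 0.83% and 7.38 ± 1.24% of counts. The level of Sdhc moved with the layout, from a mean of 4.38 to 11.3 TPM. That of Sdhd, with 1 transcript of 4 exons, was 4.79 and 4.02 TPM. Acod1, also with 1 transcript, had 1522 and 1478 TPM, a ratio of 0.971 between the layouts beside 1.64 for Sdha, 1.14 for Sdhb and 2.58 for Sdhc.

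**Figure D3:**
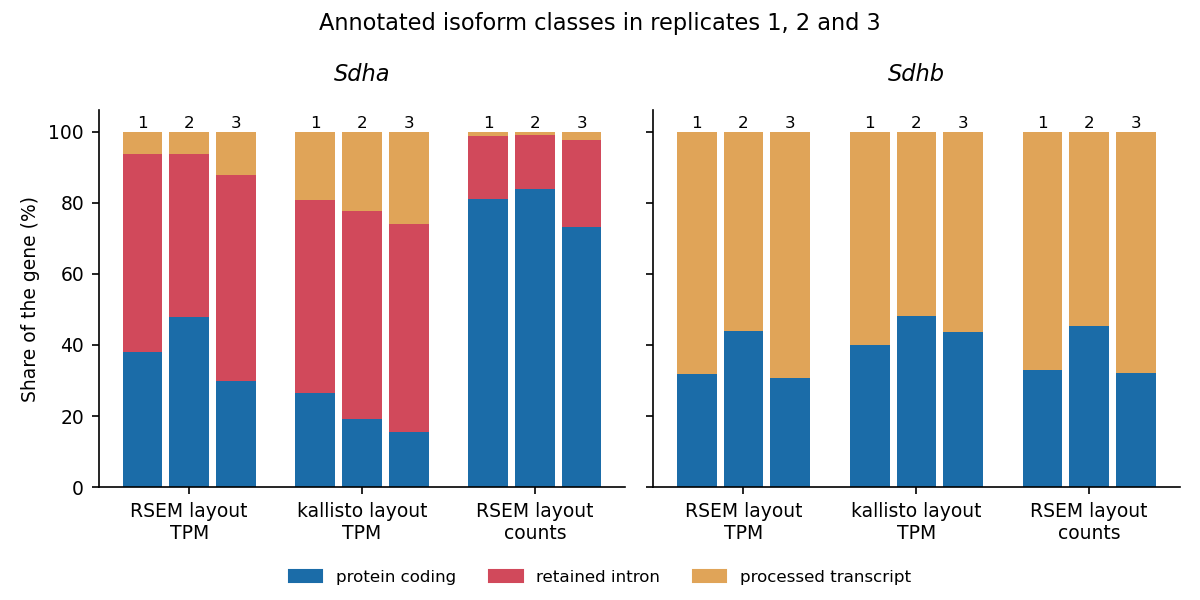
Share in percent of each annotated isoform class of Sdha and Sdhb in replicates 1, 2 and 3, by TPM of the RSEM layout, TPM of the kallisto layout and counts of the RSEM layout. Retained-intron isoforms hold over 45% of Sdha in each library by TPM and under 25% by counts, while the processed transcripts of Sdhb hold over 50% of Sdhb in each column.

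The factors that assemble complex II were measured beside its subunits. Sdhaf2, which attaches the flavin to Sdha, was the highest of the 4 at 7.32, 15.9 and 12.1 TPM in replicates 1, 2 and 3. Sdhaf1, which helps mature the iron-sulfur clusters of Sdhb, had 0.40, 0.91 and 0.09 TPM, and Sdhaf3, which acts on the same subunit, 0.22, 0.49 and 0.20. Sdhaf4, which binds flavinated Sdha, had 0, 2.13 and 0 TPM, from 10 counts in replicate 2. Sdhaf2 was the single factor above both anchor genes in every library, and the median of the 4 was 0.658 ± 0.751 TPM (SD, n = 3).

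The other enzymes of the citrate cycle form a list of 14 genes. All 14 were detected and 7 had at least 10 TPM in every library. Of 15865 protein-coding genes with a count, 13841 were detected and 3687 had at least 10 TPM in every library. The same background applies to the lists below. Their median was 9.77, 20.9 and 14.1 TPM in replicates 1, 2 and 3, beside 8.09, 16.0 and 7.68 TPM for the 4 subunits. Dlst, the succinyl transferase of the oxoglutarate dehydrogenase complex, was highest at 101 ± 16.4 TPM (SD, n = 3), and Idh3a, the catalytic subunit of NAD-dependent isocitrate dehydrogenase, was lowest at 2.15 ± 2.26 TPM. Of the 14, 2 were above Sdha and 4 were below Sdhd by their means. Enzymes that feed the cycle or act in the cytosol had a lower median, 3.95 ± 3.50 TPM, with the succinate semialdehyde dehydrogenase gene Aldh5a1 at 0.060 ± 0.044 TPM as the lowest.

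Genes of the other respiratory complexes and of enzymes that reduce ubiquinone had a median of 17.0 ± 6.40 TPM (SD, n = 3). Of these, 13 of 13 were detected and 6 were at 10 TPM or more in every library, beside 13841 and 3687 of 15865 protein-coding genes. Atp5b, the catalytic subunit of ATP synthase, was highest at 50.1, 141 and 120 TPM. Dhodh, which passes electrons from dihydroorotate to ubiquinone, was lowest by its mean in the RSEM layout, at 1.14, 3.40 and 1.39 TPM. In the kallisto layout Uqcrfs1 of the same list was below it, at a mean of 2.86 beside 4.34 TPM. Of the 13 genes, 12 were highest in replicate 2, as were 13 of 14 citrate cycle enzymes and all 4 subunits, beside 75.2% of protein-coding genes of at least 1 TPM. With TPM scaled to protein-coding genes alone that last share was 55.5%, and the lists were not recounted on that scale.

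Itaconate is broken down through its coenzyme A ester, and carriers move related acids across the inner membrane. Of the 7 genes listed for these steps that were found, all were detected, 2 of them at 10 TPM or more throughout, and the median was 8.62 ± 5.35 TPM (SD, n = 3). Clybl, the citramalyl-CoA lyase at the end of that route, was lowest at 0.89, 1.56 and 0.36 TPM from 14, 20 and 5 counts. Slc25a10, the dicarboxylate carrier, was highest in the RSEM layout at 18.9, 38.1 and 14.9 TPM. In the kallisto layout Auh of the same list was above it, at a mean of 38.4 beside 29.6 TPM. Clybl lay below every subunit gene in each library.

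Genes for the delivery or export of itaconate and their lysosomal links had a median of 3.15 ± 1.32 TPM (SD, n = 3). Rab32, a GTPase that takes part in the delivery of itaconate to vacuoles that hold bacteria, was highest of the 5 at 22.7, 28.9 and 31.0 TPM. Lrrk2, a kinase that interacts with Rab32, had 4, 3.97 and 3.66 TPM. Bloc1s3, a subunit of a complex of lysosome-related organelles, had 0.27, 0.80 and 0.38 TPM. Tfeb, a transcription factor of lysosome genes, had 3.85, 8.13 and 1.63 TPM, and the exporter gene Abcg2 had 1.18, 3.27 and 0.83 TPM. Rab32 alone of these exceeded Sdhb in every library.

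Genes whose proteins are known to be modified or acted on by itaconate had a median of 96.0 ± 16.4 TPM (SD, n = 3), and 7 of the 9 found were at 10 TPM or more in every library. Nlrp3, the inflammasome sensor, was highest at 403, 419 and 585 TPM. Keap1, which holds the transcription factor Nrf2 in the cytosol, was the lowest by its mean, with 8.78, 13.1 and 6.79 TPM. Nfe2l2, which encodes Nrf2, had 222, 180 and 237 TPM, and like Acod1 it was lowest in replicate 2. Genes known to respond to itaconate or its esters had a median of 9.72 ± 5.46 TPM. Of these 9, Nfkbiz, which encodes an atypical inhibitor of NF-kB, was highest at 347, 307 and 363 TPM. Nqo1, a quinone reductase gene under Nrf2, was lowest at 0, 0.53 and 0.05 TPM from 0, 9 and 1 counts.

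Of the genes for succinate sensing and the HIF-1 pathway, the succinate receptor gene Sucnr1 had 0 counts in each library, under the 3-count level of 0.238, 0.174 and 0.176 CPM. Hif1a, the oxygen-regulated subunit of HIF-1, had 17.8, 32.0 and 33.7 TPM. Il1b, the cytokine gene that succinate is known to favour through HIF-1, was highest at 309, 220 and 396 TPM. Egln3, a prolyl hydroxylase of HIF-1, was the lowest detected gene, with 0, 5 and 0 counts. Il1b was lowest in replicate 2, as were Acod1, Nfe2l2 and Nfkbiz, whereas Hif1a was not. Other list genes not named here were lowest there too, so this order was not particular to the named genes. Of protein-coding genes of at least 1 TPM, 6.90% were lowest in replicate 2.

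The 10 transcription factor genes known to act on Acod1 had a median of 84.2 ± 15.7 TPM (SD, n = 3), and none of them was under 10 TPM in any library. Irf1, an interferon regulatory factor, was highest at 721, 596 and 536 TPM, and Cebpb, a factor of myeloid and acute-phase genes, was lowest at 15.9, 14.4 and 10.6 TPM. No gene of the 10 lists stood above Acod1 by its mean. In the edgeR fit of the slope on starting RNA, 0 of 85 list genes tested were called in either direction. Of those 85, 12 had an unadjusted p under 0.05, where 1334 of 14001 genes did. DESeq2 called 0 of 86, where 123 of 14817 genes were called, and 9 had an unadjusted p under 0.05, where 978 did.

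**Figure D4:**
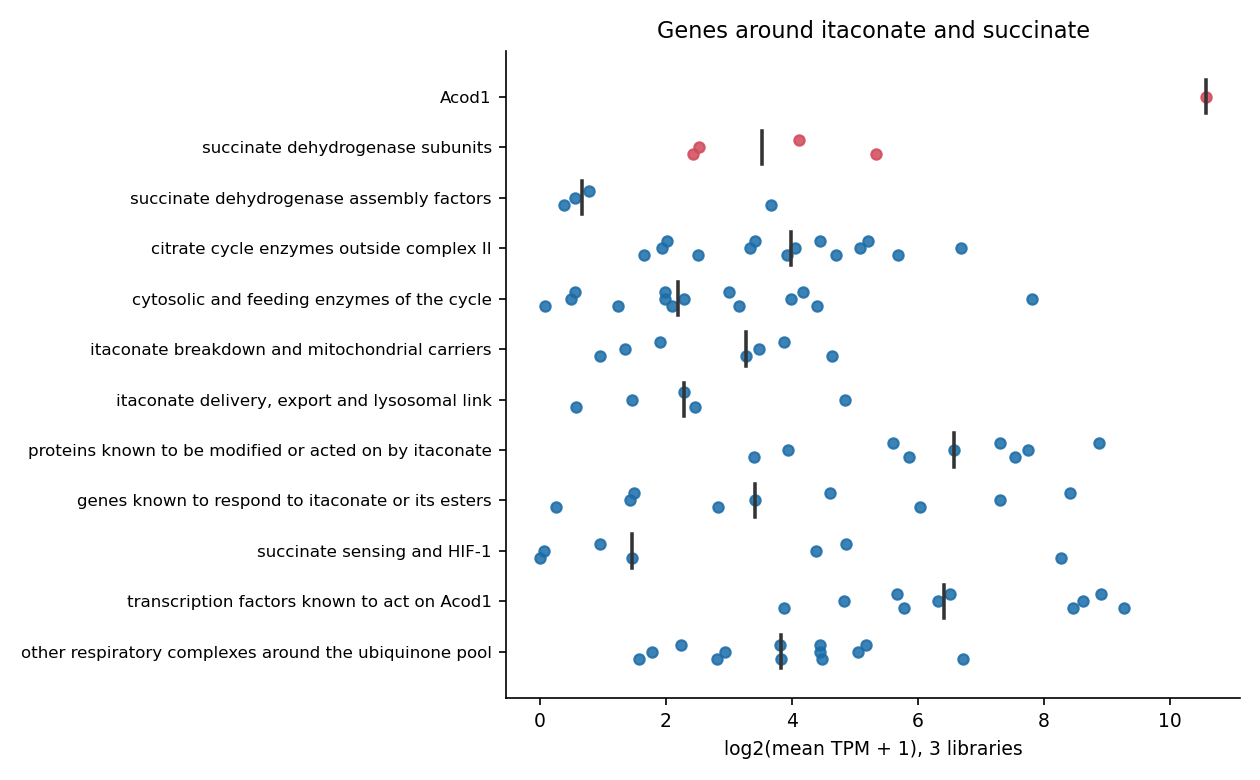
Mean level over 3 libraries as log2(TPM + 1) of Acod1, of the 4 subunit genes and of the genes in 10 lists, with 1 dot per gene and a bar at the median of each row. Acod1 lies right of every other dot, and the assembly factors have the lowest median, apart from Sdhaf2 at 11.8 TPM.

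The genes whose levels were most like each of the 5 over the 3 libraries were found by their distance in log2(TPM + 1), which reads level and replicate order together. For Acod1 these were Zeb2, Ikbke and Fyb, at distances of 0.21, 0.27 and 0.48. Zeb2 had 1430.4, 1499.5 and 1610.4 TPM in replicates 1, 2 and 3, Ikbke 1584, 1412 and 1346, and Fyb 1233, 1366 and 1313. None of them was lowest in replicate 2, as Acod1 was. For Sdha they were Ubr3, Rhoa and Mprip, each at 0.07, and for Sdhb Cul9, Glmp and Jade2, at 0.06, 0.07 and 0.10. Taldo1, Zfp771 and Mrpl53 were nearest to Sdhc, at 0.04, 0.09 and 0.12. Ech1, Hnrnpa0 and Mrpl53 were nearest to Sdhd, at 0.13, 0.17 and 0.20. Mrpl53, a mitochondrial ribosomal protein gene with 1.86, 8 and 3.54 TPM, was thus near both membrane anchor genes.

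Sdha and Sdhd share their start region with a divergent neighbour. The start of Ccdc127 lies 29 bases from that of Sdha and the start of Timm8b 98 bases from that of Sdhd, each on the other strand. Of 22028 protein-coding genes, 6.77% have such a neighbour within 1000 bases. Timm8b, which encodes a mitochondrial import chaperone, had 4.84, 7.76 and 2.60 TPM, a level near that of Sdhd, though from 26, 26 and 10 counts. Ccdc127 had 1.24, 3.95 and 1.42 TPM, far below Sdha. Inside an intron of Sdha the pseudogene Gm16125 lies on the other strand and had 12, 9 and 10 counts. Since the strand setting is not given in the sources used here, its reads and those of Sdha introns cannot be told apart. Beside Acod1, the neighbour Kctd12 had 38.1, 71.6 and 122 TPM, below the level of Acod1 in each library.

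Promoter windows from RefSeq (GRCm38.p6, 250 bases before to 50 after the start) were matched by symbol for Acod1, Sdha, Sdhb and Sdhd. The sequences before the start of Acod1 and of Sdhb are shown because their windows differ in base composition. They are 150 bases on the + strand upstream of both the RefSeq and the GENCODE start, 5′ to 3′. Matches to GGNNNTTCC are in capitals, on the printed strand in Acod1 and on the reverse strand in Sdhb.
Acod1, chr14:103046827-103046976: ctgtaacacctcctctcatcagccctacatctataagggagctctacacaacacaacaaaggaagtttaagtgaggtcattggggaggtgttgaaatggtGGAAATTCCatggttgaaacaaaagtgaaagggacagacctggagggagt
Sdhb, chr4:140961053-140961202: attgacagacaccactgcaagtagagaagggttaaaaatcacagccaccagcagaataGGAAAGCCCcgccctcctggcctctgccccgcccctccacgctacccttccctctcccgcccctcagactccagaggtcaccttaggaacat
Over the full window of 300 bases, Acod1 had 47% G and C and 2 CG dinucleotides, and 23.3% of 32851 windows had as few or fewer. Sdha had 25 CG dinucleotides, Sdhb 15 and Sdhd 29, beside a median of 7 over all windows. As few or fewer were in 83.1, 67.0 and 88.3% of windows, so that Sdhb was the lowest of these subunit genes. Their G and C shares were 62.7, 60 and 62% beside a median of 52.7%.

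A set of 7 short motifs was searched on both strands of each window. GGNNNTTCC, part of the NF-kB site, was matched in Acod1 from 85 bases before the RefSeq start and on the reverse strand in Sdhb from 160 bases before it, and occurs in 18.5% of all windows. TATAAA was matched only in Acod1 among these 4 windows, 28 bases before the RefSeq start, and occurs in 13.6% of windows. That match lies past the GENCODE start, which is 35 bases upstream of the RefSeq start. GCGCANGCG, the NRF1 motif, was matched at 3 positions in Sdha and at 1 in Sdhd, beside 6.25% of windows with a match. CCGGAAG, an ETS motif, was matched in Sdhb and Sdhd, beside 8.86% of windows, and TTGCNNAA, a C/EBP motif, in Sdha, beside 10.8%. GAAANNGAA, part of the interferon-stimulated response element (8.56% of windows), and TGANTCA, the AP-1 motif (7.81%), were matched in none of the 4. A match describes letters in the window and is not a binding site.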

How the data were processed

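Total RNA of the chromatin fraction was sequenced by the submitters in 3 libraries of 1 group. The authors deposited expected counts of genes and transcripts in the layout of RSEM, made, per the file notes, from alignments to the mm10 transcriptome of GENCODE M21. TPM values were deposited by the authors beside them, by maximum likelihood and as posterior means, and a second set of estimated counts and TPM per transcript was deposited in the layout of kallisto. Which aligner, tool versions and strand setting were used is not given in the sources used here. Rows that name no gene (1.94, 0.269 and 0.386% of counts) stayed out of library sizes and tests.

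The 5 genes, the 10 gene lists, the markers and the motifs were chosen with earlier results of these data known. Named list genes are all members of lists of up to 6 genes. From longer lists they are the highest, the lowest detected and any undetected gene, with Keap1, Nfe2l2, Il1b and Hif1a. Ranks within lists are by mean TPM of the RSEM layout, and Auh and Uqcrfs1 are named because the kallisto layout changed the rank. A few genes that this rule or the rule on neighbours would name are not reported here. Levels were compared within libraries on log2(TPM + 1) with exact sign-flip tests, and the pseudocount of 1 shrinks differences between low genes. limma 3.58.1 in R 4.3.3 fitted the log2 ratio of retained-intron to protein-coding TPM, each plus 0.1, for genes with a summed mean of at least 5 TPM. edgeR 4.0.16 (quasi-likelihood, TMM, filterByExpr) fitted the slope on expected counts rounded to whole numbers, with DESeq2 1.42.0 as an alternative. Both fits used Benjamini-Hochberg adjustment over all genes tested. Summaries used scipy 1.17.1, pandas 2.3.3 and numpy 2.4.6 under Python 3.11.15. The level of 3 counts covers counting error only.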

Additional observations from a re-analysis of the deposited data

How the results depend on the processing

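No paired analysis was possible because all libraries belong to 1 group. The difference of Acod1 from the subunits kept its sign under all 8 alternatives, as did 5 of the 6 subunit pairs under 6 alternatives each. Sdhc minus Sdhd turned from −0.05 to 1.35 with the kallisto layout, 0.22 with posterior mean TPM and 0.67 in CPM, and ranged from −0.154 to 0.0181 with a library left out, above 0 only without replicate 2. The count of genes called in the isoform fit was 2153 and became 824 to 1730 when 1 library was left out, with the lowest count without replicate 3. Other settings of that fit gave 2365 to 3161. The log2 ratio of Sdha turned from 0.48 to −2.06 with expected counts and was 1.51 with the kallisto layout. The slope fit called 219 genes, 256 with DESeq2 size factors, 1348 with no filter on low counts, 51 with kallisto counts and 123 with the DESeq2 Wald test. With kallisto counts the slope of Sdha turned from −0.04 to 0.0091 and that of Sdhb from 0.10 to −0.0080. With a library left out, slopes ranged from −0.29 to 0.18 for Sdha (positive without replicate 2), from −0.50 to 0.69 for Sdhb (negative without replicate 1) and from −0.98 to 0.15 for Sdhc (positive without replicate 2). With 2 libraries a slope has no residual degrees of freedom and is a value with no test, and their exact sign-flip tests cannot go below p = 0.5. The cause was not tested. Counts of 26 to 180 limit the precision of Sdhc and Sdhd.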
